A study of Mus musculus with 10 samples.

Results

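Loss of Mr1 was examined in peritoneum that had received only buffer. The comparison set 2 RNA-seq libraries of Mr1-/- mice beside 3 libraries of Mr1+/+ mice, which are 5 of the 10 libraries in the study. All animals were male C57BL/6 mice and were injected into the peritoneal cavity for 6 weeks. The mice compared here received phosphate-buffered saline (PBS), while those of the other 5 libraries received the same volume of peritoneal dialysis (PD) fluid at 4.25%, a high-glucose solution used in dialysis. The age of the mice, the way the Mr1 allele was made, whether the genotypes were littermates and which animal gave which library are not stated in the labels. Because the labels do not tie libraries to animals, the p-values reflect only how these samples vary, and that variation may be technical in origin. The count table held 21899 rows with 21877 symbols, and the 15385 genes with enough reads were tested in 1 model of all 10 libraries. Levels are given as CPM, counts scaled to the size of the library, and differences are Mr1-/- minus Mr1+/+ on the log2 scale, so that 1 is a doubling.

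MR1 is a class I-like molecule that pairs with beta-2-microglobulin and holds small metabolites made when microbes synthesise riboflavin. It shows them to mucosal-associated invariant T (MAIT) cells, which need MR1 to develop in the thymus and are rare in laboratory mice. The peritoneum is a thin membrane of mesothelium over connective tissue, fat, vessels and lymphoid clusters, and it covers the abdominal wall and organs.

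The 5 PBS libraries held 14145635 to 16335799 counted reads. Mr1+/+ PBS replicates 1 and 2 differed little more than by sampling noise, with a chi-square of 2.23 per gene against 18.6 to 118 in the other pairs of 1 group, and were counted as 1 sample. The comparison therefore rests on 2 samples against 2, for which an exact permutation test of a single gene cannot go below p = 0.33. Leaving out Mr1+/+ replicate 3 or either Mr1-/- library leaves 1 sample in that genotype. The spread then comes from the other groups, so counts of genes passing in such fits are a description and not a test. Mr1+/+ PBS replicate 3 stood apart from replicates 1 and 2 by a log2 SD of 0.961 and 0.962 over 11695 genes. The Mr1-/- replicates differed from each other by 0.449 on that measure, and from Mr1+/+ replicates 1 and 2 by 0.458 to 0.517. Genes that define the pancreas and the intestine were high in Mr1+/+ replicate 3, and smooth muscle genes in Mr1-/- replicate 2. A marker of the labelled tissue was present in every library: Upk3b, a mesothelial membrane protein, was at 78.5, 79.9 and 36 CPM in Mr1+/+ and at 68 and 26 CPM in Mr1-/-. Nnt, which carries a deletion in the C57BL/6J substrain, was at 0.242 to 0.438 CPM in all 5 libraries.

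Under PBS, the Mr1-/- and Mr1+/+ peritoneum differed in 2 genes after adjustment over all genes. Alb, which encodes serum albumin, rose and Mr1 itself fell. Each of them is 0.0065% of the genes tested. Before adjustment, 867 genes (5.64%) were higher in Mr1-/- and 462 (3%) were lower at p under 0.05. In 2808 genes (18.3%) both Mr1-/- libraries were above all 3 Mr1+/+ libraries, and in 2349 (15.3%) both were below. These shares are the background against which each gene group is counted, and apart from Mr1 and Alb no gene named here passed the adjusted test. That test is edgeR's, and DESeq2, run as an alternative, called 215 genes.

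The unadjusted list leaned strongly on base composition. Genes were ranked by the GC content of their longest transcript and split into 5 classes of equal size. The class with the least GC (18.1 to 44%) held 584 of the genes that were higher, or 68.7% of those with a GC value, and 15 of the genes that were lower. In the class with the most GC (55.6 to 72.8%) the counts were 35 higher and 162 lower. The median log2 difference ran from 0.34 in the first of these classes to -0.14 in the other. Within libraries, the AT-rich class stood -0.24 and -0.21 from the mean in Mr1+/+ replicates 1 and 2, 0.0018 in Mr1+/+ replicate 3, and 0.28 and 0.14 in the Mr1-/- replicates. An offset for GC, added after the data were seen, left 436 genes higher at unadjusted p under 0.05, with 124 higher and 138 lower in the AT-rich class. Both adjusted calls were kept. What sets this slope in the libraries was not tested, and group counts with the offset are given below where they differ.

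**Figure D1:**
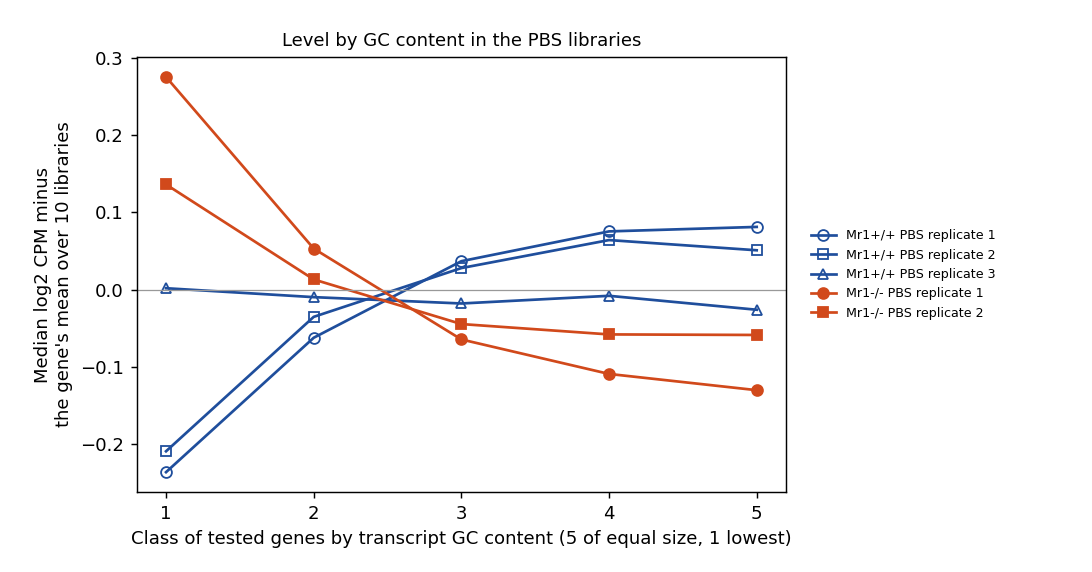
Lines join, for each PBS library, the median log2 CPM of the genes in each of 5 classes of transcript GC content (x axis, lowest first) after subtracting each gene's mean over the 10 libraries (y axis). Both Mr1-/- libraries stand above 0 in the first class (0.28 and 0.14) and below 0 in the last (-0.13 and -0.059), and Mr1+/+ replicates 1 and 2 run the other way.

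Mr1 was measured at 20.3, 21.8 and 24.8 CPM in the Mr1+/+ PBS libraries and at 2.45 and 1.96 CPM in the Mr1-/- PBS libraries, and the groups were far apart. It fell by 3.37 on the log2 scale (SE 0.22, edgeR adjusted p = 0.00358), a level 10.4-fold higher in Mr1+/+. The 36 and 29 reads left in the Mr1-/- libraries are counted on the gene symbol, and their place within the gene was not analysed here. Mr1 (ENSMUSG00000026471.14) lies on the minus strand of chr1:155127277-155146814 in mm10. The genes around it did not share its difference: of 56 genes tested within 5 Mb, 0 passed the adjusted test, 5 were higher at unadjusted p under 0.05 (8.93%) and 0 were lower. The 4 nearest genes on either side, Ier5, Cacna1e, Glul and Teddm2, and Stx6, BC034090, Xpr1 and Acbd6, had log2 differences from -0.37 to 0.24, and each overlapped between genotypes.

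Other class I-like molecules showed no comparable difference. In a list of 18 such genes, 16 were tested and only Mr1 passed unadjusted p under 0.05. The class I-like counts, higher and lower and with Mr1 included, were 1 and 3 without Mr1+/+ replicate 3, 0 and 1 without Mr1-/- replicate 1, 0 and 1 without Mr1-/- replicate 2 and 0 and 1 with the GC offset. H2-Q7, a Qa-2 molecule with near-identical neighbours whose reads could be split between copies, had a log2 difference of -0.46 (unadjusted p = 0.0759), and Cd1d1, which shows lipids to natural killer T cells, had 0.29 (unadjusted p = 0.156). Of 17 genes of classical class I presentation, 0 passed in either direction, and their counts were 0 and 2 without Mr1+/+ replicate 3, 0 and 0 without Mr1-/- replicate 1, 1 and 0 without Mr1-/- replicate 2 and 0 and 0 with the GC offset. Beta-2-microglobulin, the shared light chain, was at 1249, 1286 and 1247 CPM in Mr1+/+ and at 1475 and 1568 CPM in Mr1-/- (log2 difference 0.28), and this turned to -0.084 with the GC offset.

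Many transcripts of liver secretory proteins lay above the wild type. Alb was at 0.188, 0.242 and 0.491 CPM in Mr1+/+ PBS and at 105 and 64.1 CPM in Mr1-/- PBS, with no overlap. It rose by 8.05 on the log2 scale (SE 0.58, edgeR adjusted p = 0.0154), and by more than the spread between libraries of either group. The adjusted p was 0.27 without Mr1+/+ PD fluid replicate 3, which enters only the shared spread, and 0.217 in a fit of the PBS groups alone, where the Mr1 call was lost too. Of 23 liver genes tested, 11 were higher at unadjusted p under 0.05 and 0 were lower, and 14 were higher without overlap. Their median log2 difference was 1.63, against -0.016 over all genes, with 16 above 0 and 7 below. The summed level of the list was 2660, 2630 and 3250 CPM in Mr1+/+ PBS and 3940 and 3310 CPM in Mr1-/- PBS. Of these liver genes, 4 had no read in any Mr1+/+ PBS library and could only come out higher. Others, among them Alb (3, 4 and 7 reads), Hpx and Ahsg, had few reads there and little room to come out lower. The counts, the median and the unadjusted p-values of this list are therefore a description and not a test. Fewer cells of a type and less RNA per cell cannot be told apart in such bulk tissue.

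The fibrinogen chains, which the liver secretes for clotting, had no read in any Mr1+/+ PBS library. Against a floor of 3 counts over that group, Fga was at least 76.7-fold higher, Fgb at least 51.8-fold and Fgg at least 28-fold, on 145, 98 and 53 reads in the Mr1-/- libraries. Mup20, a major urinary protein made by liver, was at least 93-fold higher on 176 reads, although reads of this family of near-identical genes could be split between copies. Crp, an acute-phase protein, was at least 11.1-fold higher on 21 reads. These genes thus had reads in Mr1-/- PBS only. Hpx, the heme-binding hemopexin, was at 0.188, 0.242 and 0.0702 CPM in Mr1+/+ and at 6.12 and 3.99 CPM in Mr1-/- (log2 4.95, unadjusted p = 9.92e-05). Ahsg, the secreted fetuin-A, was at 0.188, 0.182 and 0.351 CPM in Mr1+/+ and at 10.3 and 5.41 CPM in Mr1-/- (log2 4.93, unadjusted p = 0.000396). Among the liver genes that were higher without overlap, 13 had under 200 CPM in Mr1-/- and at least 20 reads in Mr1-/- replicate 2. In these genes, which that filter picked by their Mr1-/- levels, replicate 1 was at 1.26 to 1.97 times the level of replicate 2.

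Not all liver genes separated the genotypes. Apoa1, which liver and intestine both make for lipoproteins, was at 0.0625, 0 and 141 CPM in Mr1+/+ and at 9.52 and 5.41 CPM in Mr1-/-. Hnf4a, a transcription factor of liver, intestine and pancreas, was at 0.438, 0.363 and 216 CPM in Mr1+/+ and at 1.97 and 0.812 CPM in Mr1-/-. Both were high in Mr1+/+ replicate 3, which was also the library high in intestinal and pancreatic transcripts. Without that library the median log2 difference of the liver list was 6.93, and without Mr1-/- replicate 1 or 2 it was 1.21 and 1.95. Under PD fluid, in other libraries, Alb was at 2.17, 0.805 and 1.36 CPM in Mr1+/+ and at 105 and 108 CPM in Mr1-/-, and the liver list had a median of 4.90. The part of RNA from liver in these differences was not tested.

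**Figure D2:**
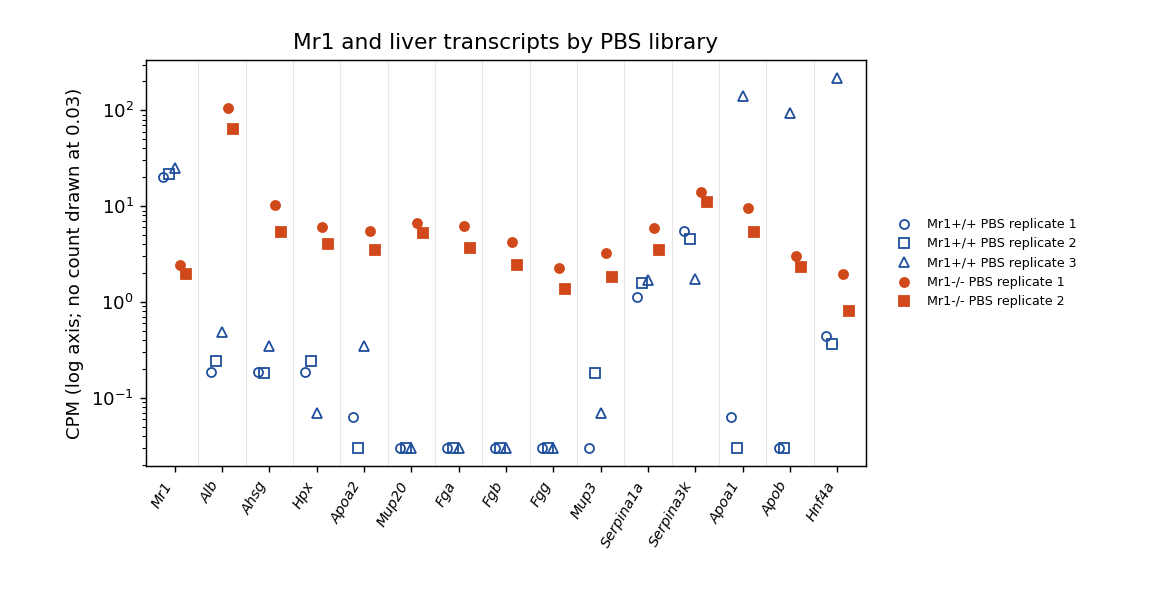
Points give the CPM of Mr1 and the liver genes (x axis) in each PBS library on a log axis (y axis), open blue for Mr1+/+ and filled orange for Mr1-/-, with the lowest position for genes without a read. From Alb to Serpina3k both Mr1-/- points lie above the Mr1+/+ points, while for Apoa1, Apob and Hnf4a the highest point is Mr1+/+ replicate 3 (141, 93.7 and 216 CPM).

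Alb and Fgb are shown with their promoters because they separated the genotypes without overlap and share a short motif known from liver promoters. The letters GTTAAT, or ATTAAC on the other strand, form one arm of the site of HNF1, a factor that drives many liver genes. The sequences are the 250 bases before each RefSeq start in GRCm38.p6, the assembly of mm10, read 5′ to 3′ on the strand of the gene, with the motif in capitals. Alb lies on the plus strand with its window at chr5:90460620-90460869, and Fgb on the minus strand with its window at chr3:83049864-83050113.
Alb: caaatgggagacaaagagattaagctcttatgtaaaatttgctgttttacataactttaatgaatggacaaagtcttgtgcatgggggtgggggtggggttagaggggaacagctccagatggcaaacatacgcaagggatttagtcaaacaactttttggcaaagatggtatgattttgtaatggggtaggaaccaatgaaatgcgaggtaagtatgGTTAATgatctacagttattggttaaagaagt
Fgb: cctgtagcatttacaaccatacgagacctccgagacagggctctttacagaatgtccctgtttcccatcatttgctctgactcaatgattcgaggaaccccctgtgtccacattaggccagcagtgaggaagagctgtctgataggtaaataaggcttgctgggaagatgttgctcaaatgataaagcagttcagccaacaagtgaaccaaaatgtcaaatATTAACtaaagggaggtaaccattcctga
The motif begins 32 bases before the start in Alb and 29 before it in Fgb. It was found in 5 of the 17 liver windows at hand (Alb, Fga, Fgb, Serpina1a and Fabp1) and in 6.48% of all 27025 windows of this length, counting both strands. A match is a description of the letters and not of a bound site.

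Intestinal and pancreatic genes were high in a single wild-type library, Mr1+/+ replicate 3. Of 20 intestinal epithelial genes, 8 were lower at unadjusted p under 0.05, as were 1 of 17 pancreatic acinar genes and 4 of 15 epithelial defence genes. Summed intestinal levels were 120, 116 and 6920 CPM in Mr1+/+ PBS and 113 and 102 CPM in Mr1-/- PBS. Summed acinar levels were 677, 639 and 34100 CPM in Mr1+/+ PBS and 889 and 369 CPM in Mr1-/- PBS. Mr1+/+ replicate 3 was thus far above the other 4 libraries in both sums. Some of these genes had enough reads for the test only through that library. The counts of lower genes therefore describe that library and are not a test of genotype. Each of the 3 counts was 0 without Mr1+/+ replicate 3, when 10 intestinal, 17 acinar and 10 defence genes could be tested, and was also 0 without Mr1-/- replicate 1 or 2. The medians without Mr1+/+ replicate 3 were -0.56 and -0.052 for the intestinal and acinar lists, against -8.95 and -4.76 with it. With the GC offset 3 defence genes were lower. Mesothelial genes shared in part with gut epithelium followed it too, and Krt19, a keratin, was at 15.5, 15.3 and 341 CPM in Mr1+/+ and at 20.1 and 8.59 CPM in Mr1-/-. Summed mesothelial levels were 642, 632 and 1660 CPM in Mr1+/+ PBS and 759 and 533 CPM in Mr1-/- PBS. The mesothelial median of -0.169 became -1.1 without Mr1-/- replicate 1 and 0.234 without Mr1-/- replicate 2.

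Transcripts of the mitochondrial genome were higher in the Mr1-/- libraries. Of 11 genes tested, 8 were higher at unadjusted p under 0.05, 10 were higher without overlap and all 11 had a difference above 0, with a median of 1.25. Their summed level was 8020, 8260 and 16300 CPM in Mr1+/+ PBS and 25300 and 30600 CPM in Mr1-/- PBS, so that replicate 3 lay between the other wild-type libraries and the Mr1-/- libraries. mt-Cytb, a subunit of complex III, was at 944, 959 and 1794 CPM in Mr1+/+ and at 3715 and 4167 CPM in Mr1-/- (log2 difference 1.52, SE 0.29, unadjusted p = 0.00067). mt-Nd2, a subunit of complex I, was at 585, 578 and 786 CPM in Mr1+/+ and at 1378 and 2035 CPM in Mr1-/- (log2 difference 1.32, SE 0.24, unadjusted p = 0.000466). mt-Nd6, the complex I subunit coded on the other strand of that genome, was at 30.5, 30.1 and 43.5 CPM in Mr1+/+ and at 109 and 136 CPM in Mr1-/- (log2 1.73, unadjusted p = 0.00304). The libraries did not overlap for any of the 3 genes.

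The nuclear genes of the same complexes did not follow. Of 29 nuclear respiratory chain genes, 0 passed in either direction, 1 was higher without overlap and 6 were lower, with a median of -0.17. Mitochondrial transcripts are AT-rich, and with the GC offset 6 passed and the median was 0.67. Library preparation selected polyadenylated RNA, and tails on mitochondrial transcripts are short. Without Mr1+/+ replicate 3 the median was 1.71, and without Mr1-/- replicate 2 it was 1.01. Under PD fluid 0 were higher, with a median of -0.021. The parts of base composition and of RNA selection were not tested.

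**Figure D3:**
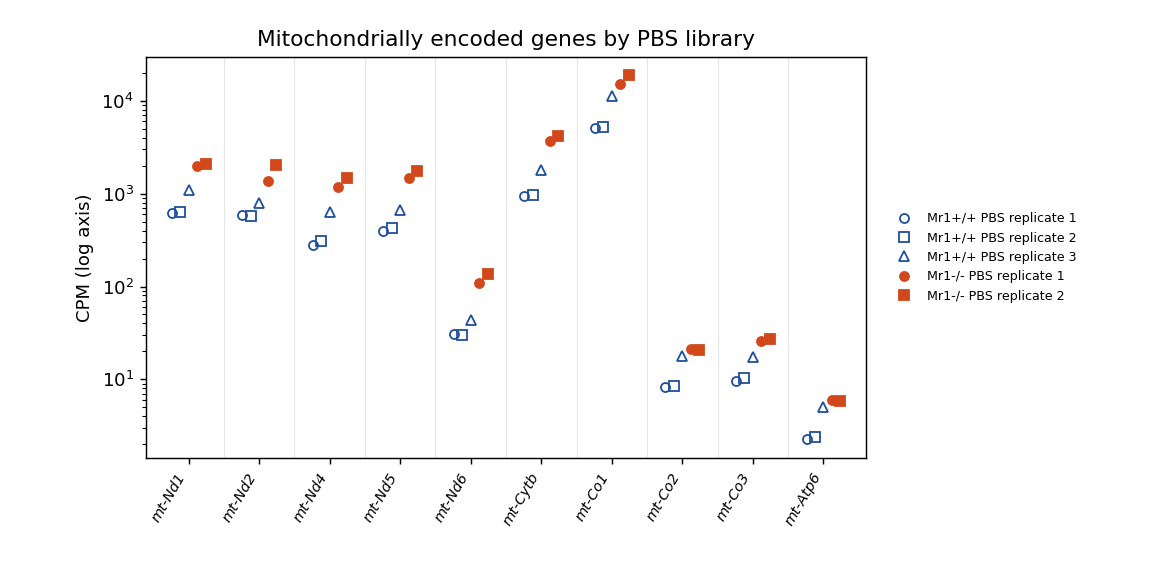
Points give the CPM of the mitochondrially encoded genes (x axis) in each PBS library on a log axis (y axis), open blue for Mr1+/+ and filled orange for Mr1-/-. The Mr1-/- points lie above the Mr1+/+ points in mt-Nd2 and mt-Cytb, and Mr1+/+ replicate 3 (triangles) is the highest of the wild-type libraries there.

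Genes of the circadian clock were more often above the wild type than below it. CLOCK and BMAL1 drive the transcription of Per and Cry genes and of the PAR-domain factors, whose products in turn restrain or relay the rhythm. Of 18 clock genes tested, 3 were higher and 1 was lower at unadjusted p under 0.05, and 10 were higher and 3 lower without overlap, with a median of 0.29. Arntl, which encodes BMAL1, was at 26, 35 and 32.4 CPM in Mr1+/+ and at 19.9 and 19.2 CPM in Mr1-/- (log2 difference -0.69, SE 0.24, unadjusted p = 0.0213). Npas2, the partner of BMAL1 in place of CLOCK, was at 3.19, 2.84 and 9.97 CPM in Mr1+/+ and at 1.63 and 0.609 CPM in Mr1-/-, also lower without overlap.

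The genes above the wild type included known targets of that pair. Per2, which represses CLOCK and BMAL1, was at 25.2, 26.9 and 29.8 CPM in Mr1+/+ and at 46.5 and 61.4 CPM in Mr1-/- (log2 0.95, unadjusted p = 0.00173). Hlf, a PAR-domain activator, was at 12.6, 12.7 and 12 CPM in Mr1+/+ and at 28.6 and 48.4 CPM in Mr1-/- (log2 1.64, unadjusted p = 0.0386). Ciart, a repressor also known as Chrono, was at 4.38, 5.26 and 4.84 CPM in Mr1+/+ and at 9.18 and 13.7 CPM in Mr1-/- (log2 1.24, unadjusted p = 0.00676). None of the 3 overlapped between genotypes. Under PD fluid the log2 differences of Arntl, Per2 and Ciart were -0.69, 0.72 and 1.64, from other libraries. These are only 3 of the 18 clock genes. The list held both higher and lower genes under PD fluid, with a median of 0.65. The time of day at which tissue was collected is not given in the sources used here. Higher and lower clock genes numbered 3 and 0 without Mr1+/+ replicate 3, 2 and 0 without Mr1-/- replicate 1, 1 and 0 without Mr1-/- replicate 2 and 3 and 1 with the GC offset, so the 1 lower call was lost when any of these 3 libraries was left out.

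**Figure D4:**
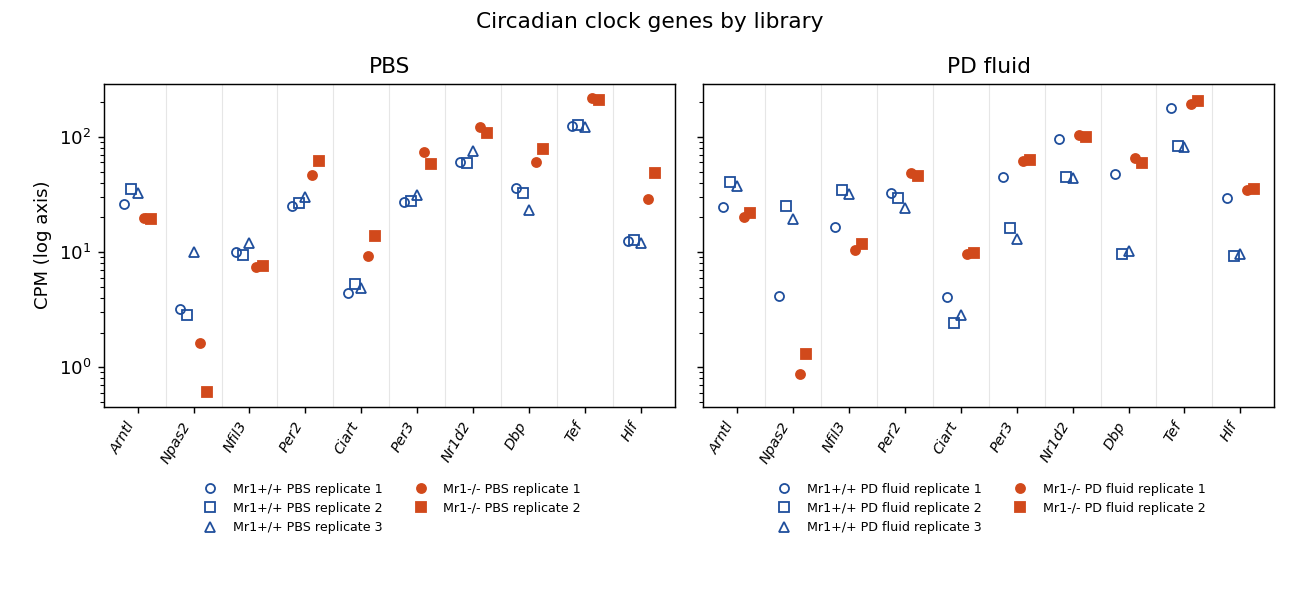
Points give the CPM of the clock genes (x axis) in each library on a log axis (y axis), with PBS on the left and PD fluid on the right, open blue for Mr1+/+ and filled orange for Mr1-/-. Under PBS, Arntl, Npas2 and Nfil3 have both Mr1-/- points below the Mr1+/+ points, and Per2, Ciart and Hlf have both above.

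Ciart is shown with its promoter because the E-box CACGTG, the site that CLOCK and BMAL1 bind, stands in it more than once. The window is the 250 bases before the RefSeq start on the minus strand, chr3:95882229-95882478 in GRCm38.p6, with each E-box in capitals.
Ciart: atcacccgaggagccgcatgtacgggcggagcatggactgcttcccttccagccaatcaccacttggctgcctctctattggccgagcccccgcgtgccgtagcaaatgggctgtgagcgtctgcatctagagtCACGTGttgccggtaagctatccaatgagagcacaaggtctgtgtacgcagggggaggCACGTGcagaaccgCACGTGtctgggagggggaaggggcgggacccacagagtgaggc
The motif, which reads the same on both strands, was found 3 times. It was present in 5 of the 15 clock windows at hand (Per1, Cry1, Tef, Ciart and Bhlhe41) and in 6.02% of all windows.

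MAIT cells could not be followed by their own transcripts at this depth. Slc4a10, a MAIT marker, had 2, 9 and 3 reads in Mr1+/+ and 3 and 5 in Mr1-/-, too few to test. Il17a, a cytokine that MAIT and other cells make, had 4, 6 and 1 reads against 1 and 1. A difference in either was not detectable. Of 26 MAIT and innate-like T cell genes tested, 0 passed in either direction. Without overlap 4 were higher and 1 was lower, against 18.3% and 15.3% of all genes. The MAIT list's counts, higher and lower, were 1 and 2 without Mr1+/+ replicate 3, 1 and 0 without Mr1-/- replicate 1, 3 and 1 without Mr1-/- replicate 2 and 0 and 1 with the GC offset. Zbtb16, which encodes PLZF, the factor that programmes innate-like T cells, was at 12.3, 13.2 and 33 CPM in Mr1+/+ and at 46 and 69.6 CPM in Mr1-/- (log2 difference 1.35, SE 0.87, unadjusted p = 0.18). Gzmb, the cytotoxic protease granzyme B, was at 13.4, 16 and 4.56 CPM in Mr1+/+ and at 2.99 and 5.28 CPM in Mr1-/- (log2 difference -1.23, SE 0.54, unadjusted p = 0.0532). Zbtb16 did not overlap between genotypes, whereas Gzmb did, through Mr1+/+ replicate 3.

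Few genes of the wider lymphocyte groups passed unadjusted p under 0.05, and Mr1+/+ replicate 3 bore on their counts. Of 15 T cell markers, 0 passed and 0 were without overlap in either direction, with a median of -0.041. Of 18 NK and cytotoxic genes, 0 passed, while 5 were higher and 1 was lower without overlap. Over all genes those shares were 18.3% and 15.3%, and 5.64% were higher and 3% lower at unadjusted p under 0.05. Of 15 B cell markers 1 was higher, Cr2, a complement receptor of mature and follicular cells (log2 0.47, unadjusted p = 0.0411). The B cell counts, higher and lower, were 0 and 5 without Mr1+/+ replicate 3, 0 and 0 without Mr1-/- replicate 1, 1 and 0 without Mr1-/- replicate 2 and 0 and 1 with the GC offset. For T cell markers they were 0 and 2 without Mr1+/+ replicate 3, 0 and 0 without Mr1-/- replicate 1, 0 and 0 without Mr1-/- replicate 2 and 0 and 0 with the GC offset, and for NK and cytotoxic genes 0 and 3 without Mr1+/+ replicate 3, 0 and 0 without Mr1-/- replicate 1, 1 and 2 without Mr1-/- replicate 2 and 0 and 1 with the GC offset. Without Mr1+/+ replicate 3 the medians were -0.40 for B cell and -0.33 for T cell markers. Cd3e, part of the T cell receptor complex, was at 94.7, 101 and 61.4 CPM in Mr1+/+ and at 73.3 and 81.9 CPM in Mr1-/-. The genotypes overlapped in it.

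Plasma cell genes were lower as a group of few. Of 11 tested, 4 were lower at unadjusted p under 0.05, 8 were lower without overlap and 0 had a difference above 0, with a median of -0.43. Tnfrsf17, the survival receptor BCMA, was at 3.88, 2.36 and 2.88 CPM in Mr1+/+ and at 0.476 and 1.01 CPM in Mr1-/- (log2 -2.00, unadjusted p = 0.00475). Sdc1, the surface proteoglycan CD138, was at 31.3, 29.9 and 65.8 CPM in Mr1+/+ and at 23.3 and 16 CPM in Mr1-/- (log2 -1.29, unadjusted p = 0.0099). Without Mr1+/+ replicate 3, where it was highest, the log2 difference of Sdc1 was -0.64. Derl3, which removes misfolded proteins from the endoplasmic reticulum, had a log2 difference of -1.04 (unadjusted p = 0.00925), and Prdm1, the factor Blimp-1 that sets the plasma cell state, had -0.61 (unadjusted p = 0.0119). The plasma cell counts, higher and lower, were 0 and 5 without Mr1+/+ replicate 3, 0 and 4 without Mr1-/- replicate 1, 0 and 2 without Mr1-/- replicate 2 and 0 and 5 with the GC offset, and under PD fluid the median was -0.00225.

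Macrophage and MHC class II genes lay mostly below the wild type, and dendritic and mast cell genes did not. Of 20 macrophage and monocyte markers, 2 were lower and 9 were lower without overlap, with a median of -0.42. The shares over all genes were 3% and 15.3%. Cd163, the haemoglobin scavenger receptor of resident macrophages, was at 29.1, 27.7 and 41.8 CPM in Mr1+/+ and at 25.8 and 19.8 CPM in Mr1-/- (log2 -0.62, unadjusted p = 0.027), and Cx3cr1, the fractalkine receptor, was at 44.3, 45.3 and 46 CPM in Mr1+/+ and at 38.8 and 28.3 CPM in Mr1-/- (log2 -0.44, unadjusted p = 0.0497). Counted as higher and lower, macrophage genes numbered 1 and 1 without Mr1+/+ replicate 3, 1 and 2 without Mr1-/- replicate 1, 1 and 5 without Mr1-/- replicate 2 and 0 and 1 with the GC offset, with medians of -0.20, -0.19 and -0.46 in the first 3 of these fits. Of 12 MHC class II genes, H2-Ab1 was lower (log2 -0.45, unadjusted p = 0.0467). The class II counts, higher and lower, were 0 and 4 without Mr1+/+ replicate 3, 0 and 0 without Mr1-/- replicate 1, 0 and 0 without Mr1-/- replicate 2 and 0 and 0 with the GC offset. Of 14 dendritic cell genes 0 passed, 10 had a difference above 0 and the median was 0.14. Of 11 mast cell and eosinophil genes 0 passed, with a median of 0.15. Of 18 type I interferon response genes 0 passed. Their summed level was 1600, 1610 and 764 CPM in Mr1+/+ PBS and 511 and 1500 CPM in Mr1-/- PBS, so that Mr1-/- replicate 1 and Mr1+/+ replicate 3 were low and the genotypes overlapped. Without Mr1-/- replicate 2 the median of these interferon genes was -1.62, and without Mr1-/- replicate 1 it was 0.397.

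Matrix genes lay slightly below the wild type. Of 23 genes of fibrillar collagens and matrix, 3 were lower, 8 were lower without overlap and 0 were higher without overlap, with a median of -0.22. The shares over all genes were 3%, 15.3% and 18.3%, and 5.64% were higher at unadjusted p under 0.05. Higher and lower matrix genes numbered 1 and 2 without Mr1+/+ replicate 3, 0 and 4 without Mr1-/- replicate 1, 0 and 1 without Mr1-/- replicate 2 and 0 and 2 with the GC offset, and without Mr1+/+ replicate 3 the median was -0.088. Fbln1, the fibulin-1 of elastic fibres and basement membranes, was at 57.6, 60.2 and 65.4 CPM in Mr1+/+ and at 42.5 and 33.2 CPM in Mr1-/- (log2 -0.71, unadjusted p = 0.00273). Thbs1, an activator of latent TGF-beta, was at 146, 154 and 127 CPM in Mr1+/+ and at 97.1 and 94.2 CPM in Mr1-/- (log2 -0.54, unadjusted p = 0.00986). Col1a1, the main chain of fibrous collagen, was at 204, 212 and 229 CPM in Mr1+/+ and at 216 and 163 CPM in Mr1-/- (log2 -0.21, unadjusted p = 0.403), with overlap. Of 21 TGF-beta pathway genes 2 were lower, Smad7 and Itgb6, and 12 had a difference above 0. Smad7, the brake on the receptors, had a log2 difference of -0.47 (unadjusted p = 0.0185). Itgb6, an integrin subunit that activates TGF-beta, had 80 reads in Mr1+/+ replicate 3 and 0 or 1 in the other PBS libraries. The TGF-beta counts, higher and lower, were 0 and 2 without Mr1+/+ replicate 3, 1 and 0 without Mr1-/- replicate 1, 1 and 0 without Mr1-/- replicate 2 and 0 and 2 with the GC offset. Of 8 lymphatic endothelial genes, Reln and Flt4 were lower and Nr2f2 was higher at unadjusted p under 0.05. The higher and lower lymphatic counts were 2 and 1 without Mr1+/+ replicate 3, 1 and 3 without Mr1-/- replicate 1, 0 and 2 without Mr1-/- replicate 2 and 0 and 2 with the GC offset. Reln, a secreted guidance protein, was at 47.8, 50.7 and 60.2 CPM in Mr1+/+ and at 27.9 and 22.8 CPM in Mr1-/- (log2 -1.11, unadjusted p = 0.000823), and Flt4, the receptor of VEGF-C, had -0.66 (unadjusted p = 0.00836).

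Fat cell genes lay above the wild type. Of 19 adipocyte markers, 4 were higher at unadjusted p under 0.05, 8 without overlap and 18 had a difference above 0, with a median of 0.53. Slc2a4, the insulin-regulated glucose carrier GLUT4, was at 42, 43.3 and 53.1 CPM in Mr1+/+ and at 71.8 and 97.4 CPM in Mr1-/- (log2 0.82, unadjusted p = 0.00208). Lpl, which frees fatty acids from lipoproteins, was at 329, 345 and 564 CPM in Mr1+/+ and at 1429.7 and 758 CPM in Mr1-/- (log2 1.28, unadjusted p = 0.00562). Car3 and Retn, a carbonic anhydrase and the hormone resistin, passed as well, with log2 differences of 0.89 and 0.95. Adipoq, the adipocyte hormone adiponectin, was at 366, 354 and 478 CPM in Mr1+/+ and at 642 and 404 CPM in Mr1-/-, with overlap. Of 20 lipid synthesis genes, 4 were higher, among them Dgat2, which makes triglyceride (log2 0.52, unadjusted p = 0.0127), and Thrsp, a lipogenic regulator (log2 0.74, unadjusted p = 0.0174). The lipid synthesis counts, higher and lower, were 4 and 0 without Mr1+/+ replicate 3, 2 and 0 without Mr1-/- replicate 1, 2 and 0 without Mr1-/- replicate 2 and 3 and 0 with the GC offset. Cpt1a, which carries fatty acids into mitochondria for oxidation, was lower without overlap, at 262, 267 and 314 CPM in Mr1+/+ and at 162 and 170.3 CPM in Mr1-/- (log2 difference -0.80, SE 0.17, unadjusted p = 0.00147). Of 18 fatty acid oxidation genes tested it was the only 1 to pass unadjusted p under 0.05. In that list 8 genes lay above 0 and 10 below, with a median of -0.0425, or 0.27 without Mr1+/+ replicate 3. Adipocyte counts, higher and lower, were 6 and 0 without Mr1+/+ replicate 3, 2 and 0 without Mr1-/- replicate 1, 9 and 0 without Mr1-/- replicate 2 and 6 and 0 with the GC offset. Under PD fluid 0 were higher and 13 lower.

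Smooth muscle, nerve and heat shock genes depended on which Mr1-/- library was read. Summed smooth muscle levels were 2870, 2850 and 2050 CPM in Mr1+/+ PBS and 1760 and 7930 CPM in Mr1-/- PBS. Of 13 such genes 2 were higher. Their median log2 difference of 0.82 became 1.46 without Mr1-/- replicate 1 and -0.70 without replicate 2. Without Mr1+/+ replicate 3 the smooth muscle median was 0.76. Acta2, the actin of smooth muscle and myofibroblasts, was at 483, 487 and 448 CPM in Mr1+/+ and at 432 and 1169 CPM in Mr1-/-, with Mr1+/+ values between the Mr1-/- replicates. Of 12 neuronal and glial genes 2 were higher, and their median of 1.26 became 1.93 and 0.0657 without Mr1-/- replicates 1 and 2. S100b, a calcium-binding protein of glia and fat cells, was at 0.876, 0.605 and 0.632 CPM in Mr1+/+ and at 1.77 and 2.64 CPM in Mr1-/- (log2 1.67, unadjusted p = 0.0123). Of 13 heat shock genes 4 were higher, and 2 with the GC offset. The heat shock median of 0.564 became 1 without Mr1-/- replicate 1 and 0.186 without Mr1-/- replicate 2. Hsp90aa1, the inducible HSP90 chaperone, was at 95.9, 91.4 and 122 CPM in Mr1+/+ and at 229 and 409 CPM in Mr1-/- (log2 difference 1.56, SE 0.30, unadjusted p = 0.00076), without overlap.

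Outside the lists, the genes with the smallest unadjusted p and no overlap included secreted and signalling proteins. Glycam1, a mucin-like ligand of L-selectin on lymphoid venules, was at 37.5, 38.7 and 40.9 CPM in Mr1+/+ and at 86 and 117 CPM in Mr1-/- (log2 difference 1.36, SE 0.20, edgeR adjusted p = 0.239). Cytl1, a small secreted protein of cartilage and CD34+ cells, was at 8.38, 7.75 and 7.65 CPM in Mr1+/+ and at 16.2 and 15.2 CPM in Mr1-/- (log2 0.99, unadjusted p = 0.000537). Under PD fluid their log2 differences were -0.87 and -1.30, of the opposite sign, but 0 genes passed the adjusted test of the genotype by treatment interaction, in which the smallest adjusted p was 0.266 and 2037 genes had an unadjusted p under 0.05. Phlda3, a p53 target that restrains AKT, was at 35.6, 34.6 and 33 CPM in Mr1+/+ and at 69.3 and 58 CPM in Mr1-/- (log2 0.90, unadjusted p = 0.000694). Vipr1, a receptor of vasoactive intestinal peptide, was at 78.9, 72.9 and 126 CPM in Mr1+/+ and at 52.4 and 42.7 CPM in Mr1-/- (log2 -1.08, unadjusted p = 0.0029), lower in both Mr1-/- libraries. F2rl1, the protease-activated receptor PAR2, was at 38.4, 38.9 and 51.8 CPM in Mr1+/+ and at 21.7 and 25.8 CPM in Mr1-/- (log2 -0.93, unadjusted p = 0.00188), lower likewise. For Phlda3, Vipr1 and F2rl1 the log2 differences under PD fluid were -0.77, 1.29 and 0.67, also of the opposite sign.

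The genotype comparison under PD fluid used the other 5 libraries and gave 1571 higher genes (10.2%) and 1361 lower genes (8.85%) at unadjusted p under 0.05. Its 2 Mr1-/- libraries were also nearly identical and were counted as 1 sample, so its spread came from the other groups. Of the 867 genes higher under PBS, 251 were higher under PD fluid, or 29% of the PBS genes and 16% of the PD fluid genes, while 89 were lower. Of the 462 lower genes, 18 were lower there, or 3.9% and 1.32%, while 22 were higher. At any p, 61.9% of the higher genes and 47.2% of the lower genes had the same sign under PD fluid, against 50% and 49.7% of all genes. Mr1, Alb, Grem1 and Fbln1 lay in the same direction in both. These genes and Axl met a naming rule that requires this agreement, so they do not represent the lists. Grem1, which binds and blocks bone morphogenetic proteins, was at 49.7, 54.6 and 43 CPM in Mr1+/+ and at 81 and 93.7 CPM in Mr1-/- under PBS (log2 0.87, unadjusted p = 0.00109) and had a log2 difference of 0.87 under PD fluid. Axl, the receptor of GAS6 that helps clear dying cells, was at 272, 255 and 236 CPM in Mr1+/+ and at 178 and 183 CPM in Mr1-/- under PBS (log2 -0.47, unadjusted p = 0.0142) and had -0.56 under PD fluid. The 2 comparisons share 1 fit and its estimate of spread. They also share a slope on GC content. The median log2 difference under PD fluid was 0.25 in the class with the least GC and -0.13 in that with the most. With the GC offset fewer genes were shared, as given below.

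Y-linked genes were present in all 5 PBS libraries of these male mice and were higher in Mr1-/-. Ddx3y, an RNA helicase, was at 31.1, 30.7 and 48.7 CPM in Mr1+/+ and at 95.4 and 82.1 CPM in Mr1-/- (log2 1.16, unadjusted p = 0.00585). Eif2s3y, a translation initiation factor subunit, was at 40.7, 41.8 and 43 CPM in Mr1+/+ and at 83.3 and 60.1 CPM in Mr1-/- (log2 0.77, unadjusted p = 0.00351). Both genes have an X-linked copy close in sequence, so reads could be split between them, and both transcripts are AT-rich. With the GC offset the log2 differences were 0.50 and 0.071. A panel of 40 single genes held no further group: of 31 tested, 3 were higher at unadjusted p under 0.05, all Y-linked, and 2 were lower, Mr1 and Areg. With the GC offset 1 was higher, and Eif2s3y and Uty no longer passed. Areg, an epidermal growth factor receptor ligand, was at 0.0625, 0.303 and 2.67 CPM in Mr1+/+ and at 0.068 and 0 CPM in Mr1-/-, high in Mr1+/+ replicate 3. Tgfb1, the profibrotic growth factor, was at 278, 279 and 183 CPM in Mr1+/+ and at 189 and 199.9 CPM in Mr1-/- (log2 -0.25, unadjusted p = 0.258). Vegfa, the angiogenic factor, was at 61.5, 58.6 and 90.3 CPM in Mr1+/+ and at 101 and 77.9 CPM in Mr1-/- (log2 0.25, unadjusted p = 0.339). Ccl2, the monocyte attractant, was at 3.13, 3.15 and 1.40 CPM in Mr1+/+ and at 2.38 and 4.47 CPM in Mr1-/- (log2 0.57, unadjusted p = 0.283), and none of these 3 growth factors and chemokines passed.

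Cytosolic ribosomal protein genes, which are short and GC-rich, lay slightly below the wild type. Of 29 tested, 0 passed in either direction, 11 were lower and 3 higher without overlap, with a median of -0.28. Without Mr1+/+ replicate 3 the median was -0.45. For a selection of the groups, the non-overlapping members were compared with the shares over all genes.

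**Figure D5:**
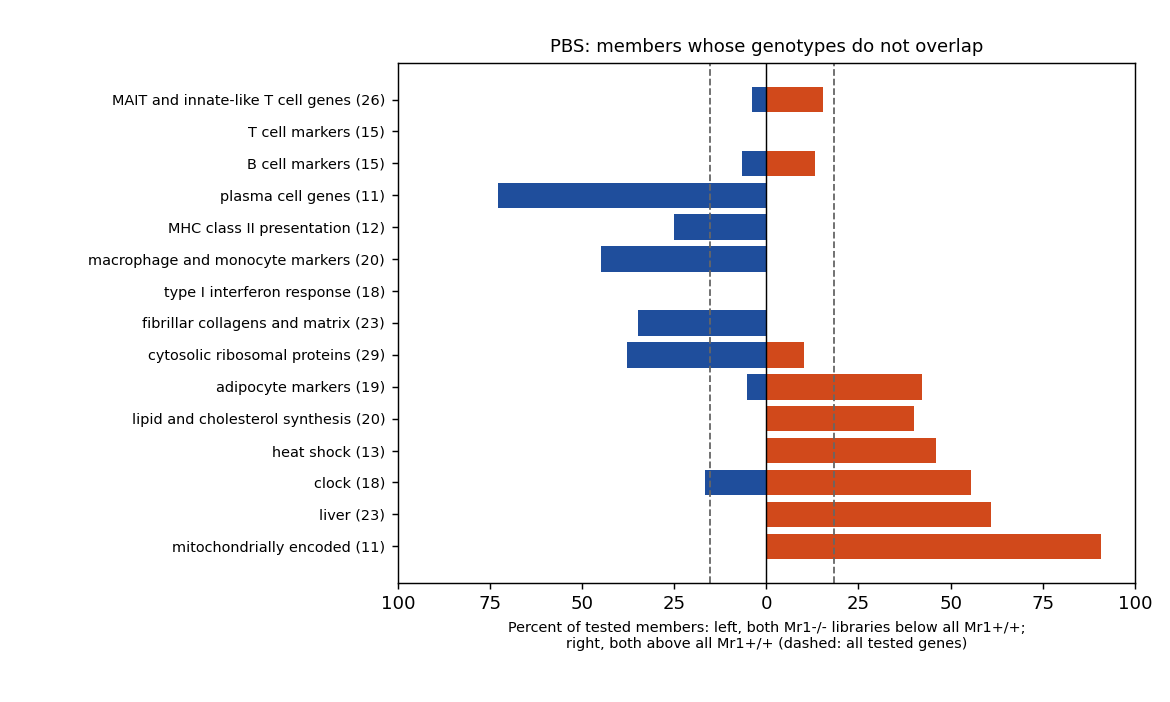
Bars give, for each gene group shown (tested members in brackets), the percent of members for which both Mr1-/- PBS libraries lay above (right, orange) or below (left, blue) all 3 Mr1+/+ PBS libraries (x axis). The groups shown are a selection from the 62 lists. Dashed lines mark the shares over all tested genes, 18.3% above and 15.3% below. Among the groups shown, the liver and mitochondrially encoded groups extend farthest to the right.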

How the data were processed

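The peritoneum of Mr1+/+ and Mr1-/- mice was profiled by RNA-seq. Per the labels' protocols, RNA was extracted with Trizol and polyadenylated RNA was selected on poly-T beads. Complementary DNA was primed with random oligonucleotides, and no step that marks strand and no molecular identifiers are named, so reads of overlapping genes on opposite strands cannot be told apart. The authors deposited 1 table of raw counts per gene symbol. The build was mm10, per the submitters' processing notes, and for the aligner and the counting tool nothing is given in the sources used here.

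Counts were analysed as deposited with edgeR 4.0.16 in R 4.3.3 (limma 3.58.1): filterByExpr, TMM scaling, a robust quasi-likelihood fit of 4 group means with 4 residual degrees of freedom, and Benjamini-Hochberg adjustment over 15385 genes. Library totals set the precision, and floors cover counting error only. Libraries of 1 group with a chi-square per gene under 5 were merged, which made 8 samples of 10 libraries. CPM use TMM-scaled library sizes. Of the tested genes, 98.4% had a name in GENCODE M21, which gave positions, transcript GC content and length. Promoters come from RefSeq, GRCm38.p6. Alternatives were DESeq2 1.42.0, RLE scaling, no filter, no robust step, separate libraries, a replicate block, the PBS groups alone and each library left out. A GC offset (loess span 0.3) was added after the data were seen.

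Genes were named by rule: Mr1 and genes past the adjusted test, the 12 genes a direction with the smallest unadjusted p, a mean of at least 5 CPM and no overlap, up to 6 a direction with the same sign under PD fluid, up to 4 a list, a panel and the neighbours of Mr1. Not every gene so chosen is described. The rule does not cover Ahsg, Apoa1, Apob, Hnf4a, Npas2, Nfil3, Slc4a10, Crp and Adipoq, which were picked with their values in view. The comparison and the 62 gene lists were chosen with earlier results of these data known.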

Additional observations from a re-analysis of the deposited data

How the results depend on the processing

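The direction of Mr1 and of Alb was kept under all 18 alternatives. With all 10 libraries as separate samples, 48 genes were higher and 2 lower after adjustment, 1788 and 998 before it, and 719 had the same direction under PD fluid. With those libraries and a replicate block, the counts were 2 higher after adjustment, 1863 higher and 1373 lower before it, and 647 shared. The PBS replicate numbers were not shown to pair samples: the differences between replicates 1 and 2 in the genotypes correlated at 0.00083 over 15385 genes. In a fit of the PBS groups alone, 0 genes were higher and 0 lower after adjustment, 217 were lower before it (899 genes in either direction), and Mr1 was at -3.39 with an adjusted p of 0.217. With no filter on low counts 5 genes were higher. DESeq2 called 76 genes higher and 139 lower, with 851 lower before adjustment. The GC offset left 436 genes higher before adjustment and 104 shared with PD fluid.

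Leaving out 1 library at a time gave 0 to 2 genes higher and 1 to 2 lower after adjustment, 665 to 1227 higher and 225 to 526 lower before it, 116 to 423 shared with PD fluid, and -3.54 to -3.22 for Mr1. The 0 was without Mr1+/+ PD fluid replicate 3, the 2 higher without Mr1+/+ PBS replicate 3 and the 2 lower without Mr1-/- PBS replicate 1. Lower genes numbered 233 without Mr1-/- replicate 1 and 225 without Mr1-/- replicate 2. Shared genes numbered 423, 124 and 161 without Mr1+/+ PD fluid replicates 1, 2 and 3, and 116 without Mr1-/- PBS replicate 1. Over these fits Apoa1 ranged from -3.70 to 7.66, Apob from -4.34 to 8.73 and Hnf4a from -7.04 to 1.79, and all 3 turned sign without Mr1+/+ PBS replicate 3 and with the replicate block (5.64, 5.01 and 0.94). Acta2 ranged from -0.11 without Mr1-/- replicate 2 to 1.33, Adipoq from -0.053 without Mr1-/- replicate 1 to 0.62, and B2m turned to -0.084 with the GC offset. The cause was not tested. With 2 samples against 2 after merging, no single gene can be judged by permutation, and genes with a few reads, such as Il17a, cannot show a difference at this depth.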

Other observations

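Several smaller groups held genes at unadjusted p under 0.05 without an adjusted call. The background at that threshold was 5.64% of all genes higher and 3% lower. Of 17 interferon gamma response genes 2 were higher in Mr1-/- PBS. Their counts, higher and lower, were 2 and 0 without Mr1+/+ replicate 3, 2 and 0 without Mr1-/- replicate 1, 1 and 0 without Mr1-/- replicate 2 and 0 and 0 with the GC offset. Iigp1, a GTPase that attacks vacuoles of intracellular microbes, was at 29.6, 30.4 and 29.3 CPM in Mr1+/+ and at 46.3 and 56.5 CPM in Mr1-/- (log2 0.79, unadjusted p = 0.00535). Gbp7, a guanylate-binding protein, was at 28.3, 26.8 and 28.3 CPM in Mr1+/+ and at 46.3 and 55.5 CPM in Mr1-/- (log2 0.87, unadjusted p = 0.0171). The genotypes did not overlap in either gene. Of 16 genes of mitochondrial expression and biogenesis 3 were higher. These counts, higher and lower, were 2 and 0 without Mr1+/+ replicate 3, 0 and 0 without Mr1-/- replicate 1, 1 and 0 without Mr1-/- replicate 2 and 0 and 0 with the GC offset. Mtpap, the polymerase that adds tails to mitochondrial transcripts, was at 15, 14.2 and 18.7 CPM in Mr1+/+ and at 23.6 and 24 CPM in Mr1-/- (log2 0.52, unadjusted p = 0.03), and Pnpt1, which trims them, was at 19.8, 22.2 and 23.3 CPM in Mr1+/+ and at 34.3 and 32.9 CPM in Mr1-/- (log2 0.60, unadjusted p = 0.021).

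Of 19 complement genes 1 was higher and 0 were lower at unadjusted p under 0.05, and 3 were higher and 8 lower without overlap. Over all genes the shares were 5.64% and 3%, and 18.3% and 15.3% without overlap, so the counts of higher complement genes were near the background. The higher and lower complement counts were 3 and 1 without Mr1+/+ replicate 3, 1 and 0 without Mr1-/- replicate 1, 2 and 3 without Mr1-/- replicate 2 and 2 and 0 with the GC offset. Cd59a, which shields cells from the membrane attack complex, was at 13.2, 11.4 and 18.6 CPM in Mr1+/+ and at 25.7 and 38.2 CPM in Mr1-/- (log2 1.05, unadjusted p = 0.0031). Of 20 hypoxia and glycolysis genes 2 were lower. The glycolysis counts, higher and lower, were 0 and 0 without Mr1+/+ replicate 3, 1 and 0 without Mr1-/- replicate 1, 1 and 0 without Mr1-/- replicate 2 and 0 and 0 with the GC offset. Pfkl, a phosphofructokinase of glycolysis, was at 121, 119 and 188 CPM in Mr1+/+ and at 98.1 and 103 CPM in Mr1-/- (log2 -0.61, unadjusted p = 0.0336), and Slc2a1, the glucose carrier GLUT1, was at 45.9, 40.6 and 55.5 CPM in Mr1+/+ and at 32.8 and 38.5 CPM in Mr1-/- (log2 -0.47, unadjusted p = 0.0428). Of 14 neutrophil markers 1 was lower, Csf3r, the receptor of G-CSF, at 23.7, 21.3 and 24.6 CPM in Mr1+/+ and at 15.5 and 17.3 CPM in Mr1-/- (log2 -0.52, unadjusted p = 0.041). The neutrophil counts, higher and lower, were 0 and 0 without Mr1+/+ replicate 3, 0 and 0 without Mr1-/- replicate 1, 0 and 2 without Mr1-/- replicate 2 and 0 and 0 with the GC offset.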
